A study of Mus musculus with 38 samples.

Results

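The sites described here were 3056 regions to which RUNX1 bound in lymphoid progenitor (LP) cells, where no RUNX1 peak was listed after Notch stimulation and no CTCF peak was listed in LP cells. They were chosen from measured values: a site had to be in the LP RUNX1 peak list, outside promoters by the authors' annotation, with no overlap of 1 bp or more with the Phase 1 RUNX1 list or the LP CTCF list. The LP list held 31995 peaks, 22883 of them outside promoters, and the sites chosen in this way made up 13.4% of the latter. They are called LP-specific sites without CTCF, after the rule. The comparison classes were the 1807 LP-specific sites that did overlap an LP CTCF peak, the 15102 LP sites without CTCF that also had a Phase 1 RUNX1 peak (shared sites), and 10379 Phase 1-specific sites that overlapped neither an LP RUNX1 peak nor a Phase 1 CTCF peak.

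All cells were of the Cas9-LP type, lines grown from fetal liver progenitors of mice that lack Ebf1 and carry Cas9 at the Rosa26 locus; how many lines entered each list is not given in the sources used here. Loss of Ebf1 holds such cells before the B lineage, so the absence of Ebf1 and the presence of Cas9 were common to all groups. LP cells grew on OP9 stroma with SCF, Flt3L and IL-7, and Phase 1 cells had been moved for 2 days to OP9-DLL4, stroma that displays the Notch ligand DLL4. Phase 2 cells were a later time of the same culture. Other cultures carried retroviral guide RNAs, either a control (sgCont) or guides to Ctcf, Cbfb or Med12 (sgCTCF, sgCbfb, sgMed12). Chromatin immunoprecipitation and sequencing (ChIP-seq) gave 17 peak lists, each combining 2 replicates, from 152 peaks for Notch1-IC in Phase 1 to 49116 for p300 in Phase 1. Guide lists of RUNX1 were short, with 874 to 2094 peaks. Each peak had a peak score of 15 or more, the authors' normalized measure of peak height, read here only within a list. The number of reads per library was not used here, so a missing peak may also reflect depth, and intervals and p-values below cover counting error over peaks, not the spread between cultures.

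RUNX1 is a DNA-binding protein that pairs with CBFβ and acts in blood stem cells, progenitors and T cells. PU.1, the E proteins, MEF2C and HOXA9 are other DNA-binding factors of multipotent and lymphoid progenitors, while GATA3 and TCF1 rise as T cell development begins. Med12 is a subunit of Mediator, the complex that links enhancers to RNA polymerase II, and p300 is a histone acetyltransferase of active enhancers. After Notch ligand binding, the intracellular part of Notch1 (Notch1-IC) enters the nucleus and works with the DNA-binding protein RBPJ.

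The sequences of a few of the 3056 sites are shown first, because the strings in them are counted below. The first 3 had the highest scores of the sites that hold a RUNX string, Crlf2 had the highest score of all, and the others were picked after their values were seen, to show E-box strings (Id3), a RUNX string in a Notch receptor gene (Notch2) and PU.1 strings (Irf4 and Myb). Each line is 200 bases around the peak centre, from the plus strand of mm10, named by the nearest gene. Capitals mark the strings TGTGGTT or TGCGGTT (RUNX), GAGGAAGT (PU.1), CAGGAAGT (other ETS proteins), and CAGCTG or CACCTG (E-box, bound by E proteins), on either strand.
Il2rb, chr15:78512068-78512267: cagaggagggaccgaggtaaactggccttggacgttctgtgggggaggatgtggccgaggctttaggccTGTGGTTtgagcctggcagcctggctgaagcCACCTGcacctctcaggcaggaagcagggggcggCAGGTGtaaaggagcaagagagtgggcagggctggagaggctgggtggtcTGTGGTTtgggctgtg
St6gal1, chr16:23286561-23286760: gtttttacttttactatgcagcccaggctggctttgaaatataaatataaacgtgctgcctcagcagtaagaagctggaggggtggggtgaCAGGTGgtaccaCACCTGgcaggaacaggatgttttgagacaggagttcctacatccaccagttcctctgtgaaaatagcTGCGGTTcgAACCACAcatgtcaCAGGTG
Vav1, chr17:57290836-57291035: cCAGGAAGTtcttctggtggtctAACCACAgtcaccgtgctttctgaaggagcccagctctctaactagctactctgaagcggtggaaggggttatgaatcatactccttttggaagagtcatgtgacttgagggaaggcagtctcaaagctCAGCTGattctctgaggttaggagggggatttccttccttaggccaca
Crlf2, chr5:109557390-109557589: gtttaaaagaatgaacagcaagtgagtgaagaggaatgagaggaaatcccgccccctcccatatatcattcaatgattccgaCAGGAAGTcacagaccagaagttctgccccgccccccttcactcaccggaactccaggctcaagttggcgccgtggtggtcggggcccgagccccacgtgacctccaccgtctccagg
Id3, chr4:136112436-136112635: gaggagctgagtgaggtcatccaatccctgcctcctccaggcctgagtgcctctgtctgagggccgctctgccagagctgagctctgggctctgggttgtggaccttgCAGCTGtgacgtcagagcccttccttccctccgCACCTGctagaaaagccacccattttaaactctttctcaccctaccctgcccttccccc
Notch2, chr3:98025558-98025757: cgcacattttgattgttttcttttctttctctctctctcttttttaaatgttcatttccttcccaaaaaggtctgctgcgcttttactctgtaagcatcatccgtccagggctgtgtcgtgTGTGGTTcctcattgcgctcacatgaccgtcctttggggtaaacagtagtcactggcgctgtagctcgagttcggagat
Irf4, chr13:30786197-30786396: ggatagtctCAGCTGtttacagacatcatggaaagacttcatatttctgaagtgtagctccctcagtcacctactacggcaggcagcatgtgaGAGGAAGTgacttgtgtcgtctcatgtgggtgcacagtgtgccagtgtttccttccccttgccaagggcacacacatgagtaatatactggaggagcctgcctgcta
Myb, chr10:21151399-21151598: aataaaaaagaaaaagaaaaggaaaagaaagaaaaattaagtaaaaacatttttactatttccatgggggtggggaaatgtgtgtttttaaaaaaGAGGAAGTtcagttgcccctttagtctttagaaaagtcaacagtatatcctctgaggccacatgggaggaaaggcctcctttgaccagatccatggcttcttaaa

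The sites without CTCF were mostly weak entries of the LP list. Their median score was 22.3, with quartiles of 17.8 and 31.7 and a maximum of 246.9, and 882 of them (28.9%) scored 30 or more. The median was 22.4 at LP-specific sites with CTCF, 23.0 at Phase 1-specific sites and 42.0 at shared sites. These scores took part in the choice of the sites and are a description only. At the lower edge, 17 sites had a score of exactly 15. At the edge of the overlap rule, 61 sites lay within 100 bp of a Phase 1 RUNX1 peak without touching it, the closest with 1 bp between them, and 71 shared sites were left out for an overlap of at most 100 bp. A further 25 sites lay within 100 bp of an LP CTCF peak, and 23 LP-specific sites were left out for a CTCF overlap of at most 100 bp.

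Absence from the Phase 1 list did not mean that Phase 1 RUNX1 binding was far away. The centre of the nearest Phase 1 RUNX1 peak was at a median of 6.39 kb, and 301 sites (9.85%; 95% Wilson interval 8.84 to 11.0%) had one within 1 kb. This distance was shorter for sites of higher score. Over 5 equal classes of score the median went from 9.82 kb in the weakest class (scores 15 to 17) to 2.50 kb in the strongest (34.8 to 246.9), where 131 of 611 sites (21.4%) had a Phase 1 peak within 1 kb. Of the 50 sites that scored 100 or more, 24 (48.0%) had one within 1 kb, and the farthest was 4.85 kb away. Score and distance both come from the lists that chose the sites, so this is a description with no test. The distance to the nearest gene start was shorter as well, with a median of 27.1 kb in the weakest class, 13.8 kb in the strongest and 8.05 kb at scores of 100 or more, and the Phase 1 list includes promoter peaks. Peaks bound at both stages were at a median of 8.92 kb, and LP CTCF peaks at 8.45 kb. The sites were scattered: 355 (11.6%) had another of their kind within 10 kb, and the median distance to it was 85.8 kb.

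**Figure D1:**
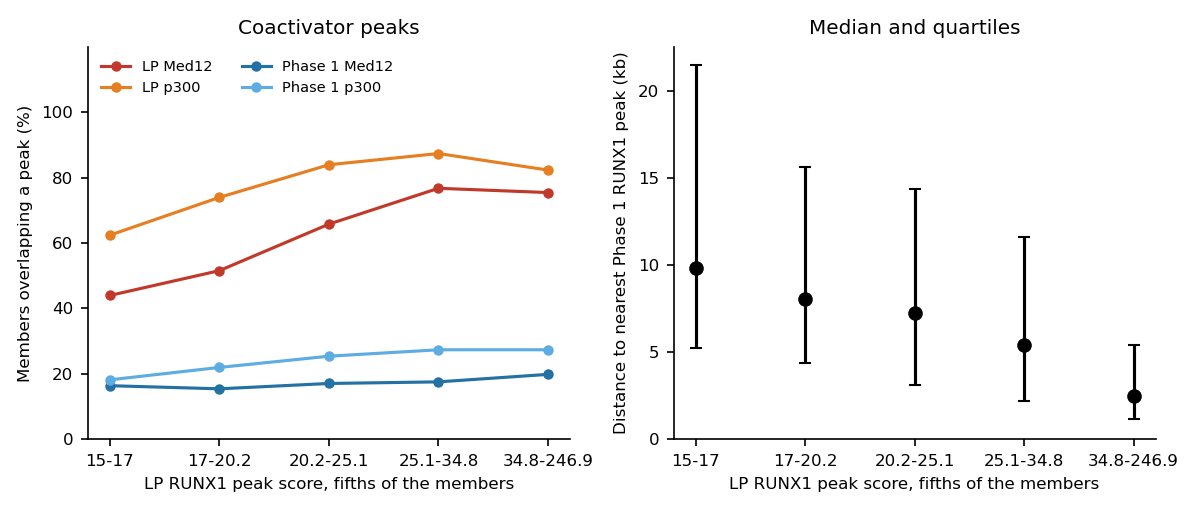
The 3056 LP-specific sites without CTCF in 5 equal classes of LP RUNX1 peak score (x axis, lowest to highest score of the class). Left: share of sites (%) that overlap an LP or Phase 1 Med12 or p300 peak. Right: distance in kb to the nearest Phase 1 RUNX1 peak centre, median with quartiles as bars, which shortens from 9.82 to 2.50 kb from the weakest to the strongest class.

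Most of these sites carried coactivators in LP cells. Of the 3056 sites, 1916 (62.7%; 60.97 to 64.4%) overlapped an LP Med12 peak and 2384 (78.0%; 76.5 to 79.4%) an LP p300 peak, against 80.6% and 88.8% of all non-promoter LP RUNX1 sites. Med12 and p300 occurred together at 1756 sites (57.5%), p300 without Med12 at 628 and Med12 without p300 at 160. Compared with LP-specific sites with CTCF, Med12 was slightly more frequent (58.8% there; odds ratio 1.18, Fisher's exact test, two-sided, adjusted p = 0.00718 over 16 tests) and so was p300 (71.8%; odds ratio 1.39, exact test, adjusted p = 1.54e-06). At sites with a score of 30 or more neither difference was called (odds ratios 1.01 and 1.13). Compared with shared sites, both were less frequent by Fisher's exact test: Med12 was at 84.8% there (odds ratio 0.301, adjusted p = 7.07e-155) and p300 at 91.7% (odds ratio 0.319, adjusted p = 4.83e-94).

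A large part of the gap to shared sites went with score. Matched over 5 score classes, the Mantel-Haenszel odds ratios were 0.669 for Med12 and 0.664 for p300. These classes divided all non-promoter LP RUNX1 sites, not the LP-specific sites without CTCF alone as above. In the weakest such class (scores 15 to 21.3) Med12 was at 50.0% of the sites without CTCF and 51.1% of shared sites. For p300 the shares were 69.8% and 71.2%. In the strongest class (scores of 78 or more), Med12 was at 74.7% of 99 sites against 97.6% of 3513 shared sites, and p300 at 77.8% against 98.3%. The difference from shared sites was thus found at the strongly scored sites and was small at the weak ones.

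**Figure D2:**
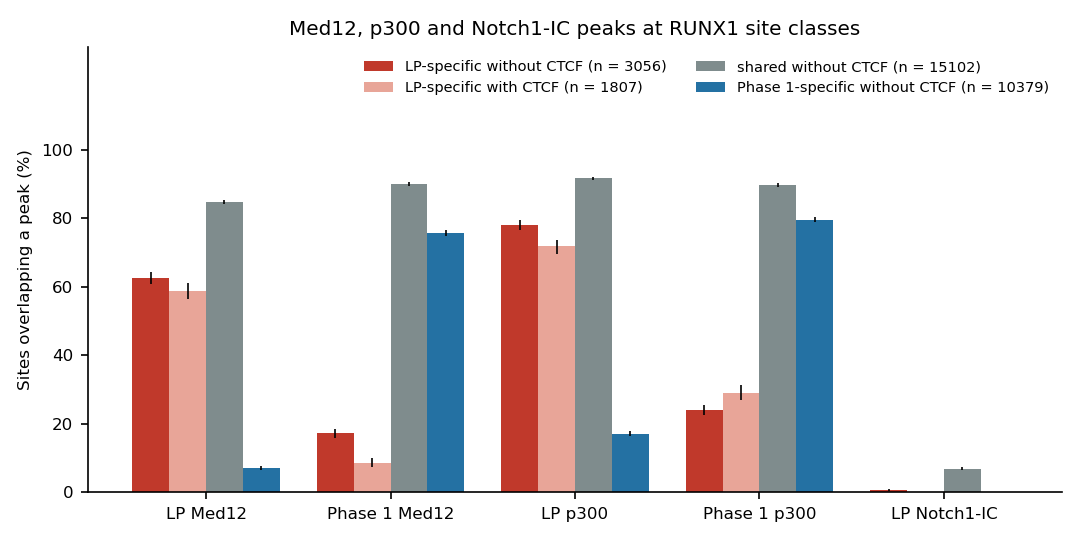
Share of sites (%, bars with 95% Wilson intervals) that overlap a peak of the list on the x axis, for the 4 classes of RUNX1 sites. LP-specific sites without CTCF (red) carried LP Med12 at 62.7% and LP p300 at 78.0%, and Phase 1 Med12 and p300 at 17.2% and 24.0%.

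In Phase 1 the coactivator peaks were mostly gone from these sites. Phase 1 Med12 overlapped 526 sites (17.2%; 15.9 to 18.6%) and Phase 1 p300 overlapped 734 (24.0%; 22.5 to 25.6%), against 73.4% and 76.4% of all non-promoter LP RUNX1 sites. Of the 1916 sites with Med12 in LP, 425 (22.2%) also had it in Phase 1, compared with 11925 of 12805 shared sites (odds ratio 0.0210). Of the 2384 sites with p300 in LP, 680 (28.5%) kept it, compared with 12829 of 13856 shared sites (odds ratio 0.0319). Both p-values were too small for the software to hold. Shared sites have a Phase 1 RUNX1 peak by definition and these sites have none, so both contrasts are tied to the rule. They are read as a description. Phase 1-specific sites showed the mirror image, with Phase 1 Med12 and p300 at 75.6% and 79.6% and LP Med12 and p300 at 7.09% and 17.2%. Med12 and p300 in LP with neither in Phase 1 was the most common pattern, at 1101 sites (36.0%). All 4 peaks were present at 270 sites (8.84%), and none of them at 445 (14.6%). A gain was rare: 101 sites had Med12 in Phase 1 only, and 54 had p300 in Phase 1 only. LP-specific sites with CTCF had Phase 1 Med12 at 8.63% and Phase 1 p300 at 29.1%.

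The DNA at these sites held the RUNX strings TGTGGTT and TGCGGTT less often than that at shared and Phase 1-specific sites. A RUNX string was found in the central 200 bp of 545 of 3052 sites with sequence (17.9%; 16.5 to 19.3%), against 5.75% of windows of that size 2 kb to either side and 27.5% of all non-promoter LP RUNX1 sites. Shared sites held it at 32.5% (odds ratio 0.452, Fisher's exact test, adjusted p = 2.96e-62) and Phase 1-specific sites at 31.4% (odds ratio 0.474, exact test, adjusted p = 2.30e-51). Matched on score, the Mantel-Haenszel odds ratios were 0.468 and 0.480. Sites with CTCF held it at 9.24%. The string was concentrated at the centre, with 3.00 occurrences per 100 sites per 20-bp bin within 40 bp of the peak centre and 0.479 at 120 to 200 bp. The corresponding central densities were 5.87 at shared and 5.64 at Phase 1-specific sites. The related word TGTGGTC, not counted as a RUNX string, was at 13.9% of these sites, 15.7% of shared sites and 3.15% of side windows. The lower share thus holds for the strings counted and was small for that word.

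E-box strings, in contrast, were more frequent here than in any of the compared classes. They were found at 1345 sites (44.1%; 42.3 to 45.8%), against 23.8% of the side windows and 38.0% of all non-promoter LP RUNX1 sites. The share was 37.0% at shared sites (odds ratio 1.34, Fisher's exact test, adjusted p = 6.12e-13; 1.55 when matched on score) and 27.4% at Phase 1-specific sites (odds ratio 2.09, exact test, adjusted p = 1.39e-65). At LP-specific sites with CTCF it was 36.0%, which was not tested. E-box strings without a RUNX string were present at 1126 sites (36.9%), and both kinds at 219 (7.18%). Around the peak centre their density was 7.16 per 100 sites per 20-bp bin, against 3.43 at 120 to 200 bp.

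**Figure D3:**
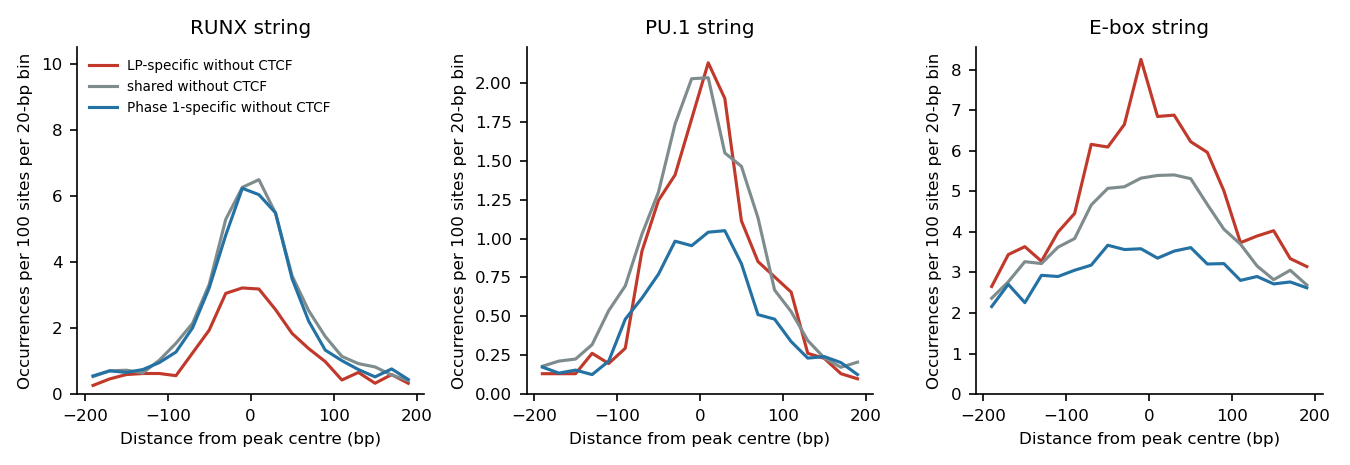
Occurrences of the RUNX, PU.1 and E-box strings per 100 sites in 20-bp bins (y axis, different scales) by distance from the peak centre (x axis, bp), for LP-specific sites without CTCF (red), shared sites without CTCF (grey) and Phase 1-specific sites without CTCF (blue). Within 40 bp of the centre the red line averages 3.00 for RUNX, 1.80 for PU.1 and 7.16 for E-box.

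The PU.1 string was at 360 sites (11.8%), 8.89 times its share of 1.33% in the side windows, and 11.4% of all non-promoter LP RUNX1 sites held it. It was more frequent than at Phase 1-specific sites (7.44%; odds ratio 1.66, Fisher's exact test, adjusted p = 3.22e-13). Against shared sites (12.8%) no difference was called (odds ratio 0.911, Fisher's exact test, adjusted p = 0.135), and the direction of this comparison changed with the setting. The related ETS string was at 9.73%, with 8.68% over all non-promoter LP RUNX1 sites and 1.54% in the side windows. PU.1 and RUNX strings were found together at 28 sites only (0.917%). In all, 2019 sites (66.2%) held at least 1 of the RUNX, PU.1, ETS and E-box strings and 1033 (33.8%) held none of them.

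Strings of AP-1, of the Notch partner RBPJ and of the T cell factors GATA3 and TCF1 were rarer here than at Phase 1-specific sites. Of these, only the AP-1 string was above its side windows. The AP-1 string TGACTCA was at 5.73% of sites, against 4.08% of the side windows and 7.29% of all non-promoter LP RUNX1 sites, and at 15.1% of Phase 1-specific sites (odds ratio 0.341, Fisher's exact test, adjusted p = 2.07e-48). The RBPJ string GTGGGAA was at 2.62% of sites, against 4.18% of the side windows and 4.49% of all non-promoter LP RUNX1 sites, and at 7.04% of Phase 1-specific sites. The GATA string AGATAAG was at 1.34% of sites, 2.54% of the side windows, 2.28% of all non-promoter LP RUNX1 sites and 4.54% of Phase 1-specific sites. For the TCF string ATCAAAG, bound by TCF1 and LEF1, these shares were 1.83%, 3.15%, 1.94% and 3.91%. For RBPJ, GATA and TCF strings the interval of the sites lay below that of their side windows, while Phase 1-specific sites lay above theirs. A TCF share below the side windows was not particular to these sites: it was 2.06% against 3.09% at shared sites and 1.66% against 3.35% at LP-specific sites with CTCF. The shares of these 3 strings were not tested.

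MEF2 and HOX strings were found at low shares, higher at these sites than in their side windows. The MEF2 string CTAAAAATA was at 1.93% of sites (1.50 to 2.49%), against 0.475% in the side windows, 1.07% of all non-promoter LP RUNX1 sites, 1.05% of shared sites and 0.597% of Phase 1-specific sites. The HOX string TGATTTAT, a joint site of HOX and PBX proteins, was at 1.97% (1.53 to 2.52%), against 0.983%, 0.787%, 0.623% and 0.501%. Both were more common where Med12 and p300 were present in LP and absent in Phase 1, at 2.91% and 3.54% of 1101 sites, than at the sites without any of these peaks, at 0.676% and 0.450% of 444 sites. These contrasts were picked out after the shares were seen and were not tested. GC content was alike, with a median of 50.0% in the 200 bp at these sites and at shared sites and 48.5% at Phase 1-specific sites. The CTCF consensus string was in 0.0655% of the windows, compared with 23.1% at LP-specific sites with CTCF.

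**Figure D4:**
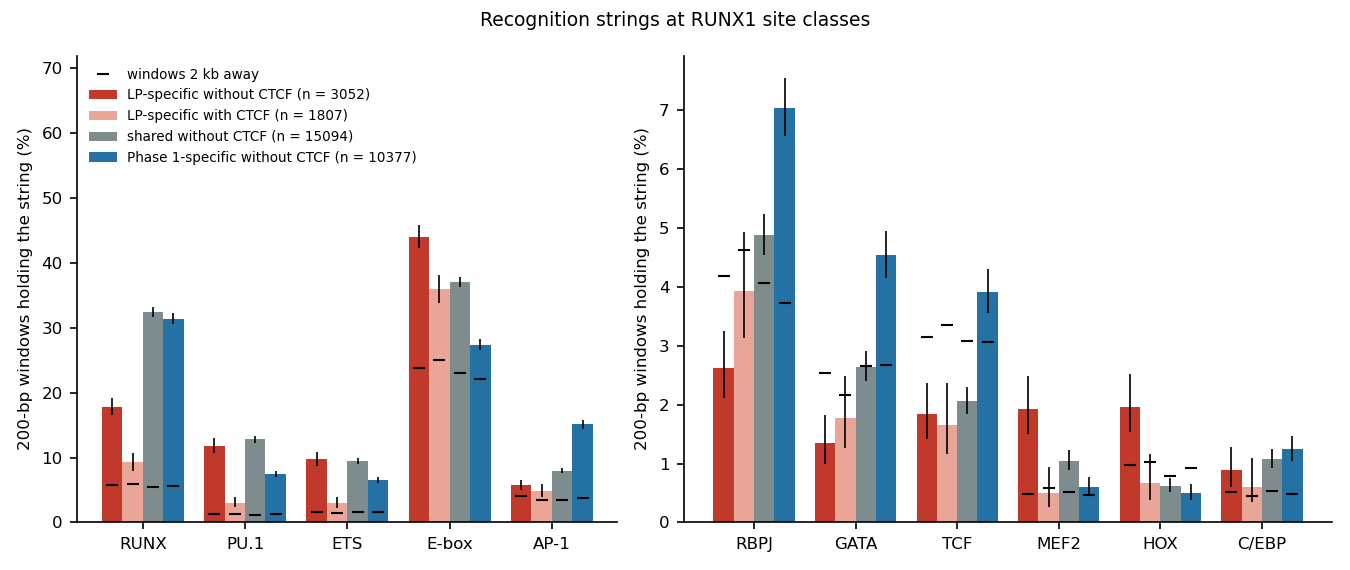
Share of 200-bp windows (%, bars with 95% Wilson intervals) that hold each string, by class of RUNX1 sites, and the share in windows 2 kb to either side (black marks). The left and right panels have different scales. At LP-specific sites without CTCF (red) the RUNX string was at 17.9% and the E-box string at 44.1%, while RBPJ, GATA and TCF strings lay below their side windows.

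When all 7-base words found in at least 40 sites were ranked by their share in the centre over that in the side windows, the first was AGGAAGT, the core of the PU.1 and ETS strings, in 25.7% of sites and 4.93% of side windows. GGAAGTG, which overlaps it, was at 17.3% and 3.77%. Other frequent words of high rank were TGTGGTC (13.9%), GTGGTCA (12.5%) and CTGTGGT (18.1%), which all contain the letters GTGG of the RUNX site. GTGGTTT was at 12.8% here and 21.9% at shared sites, whereas TGTGGTC was at 13.9% and 15.7% and GTGGTCA at 12.5% and 10.9%. The E-box word GCAGCTG was at 16.3%, above the 13.1% of shared sites. These words were ranked on the windows they describe, so the ranking carries no test.

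Sites that kept p300 held fewer RUNX strings than those that lost it. The string was at 84 of 680 sites with p300 at both stages (12.4%) and at 316 of 1703 sites with p300 in LP only (18.6%; odds ratio 0.619, Fisher's exact test, adjusted p = 2.38e-04). E-box strings were at 48.1% and 46.7%, and PU.1 strings at 13.5% and 11.3%. At the 669 sites without p300 in LP, RUNX strings were at 21.7% and E-box strings at 33.2%, with a median score of 18.7 against 22.9 where p300 was in LP only.

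The Med12 lists from cells with guides ordered these sites and shared sites in opposite ways. Cbfb encodes the partner of the RUNX proteins. In Phase 1 cells, Med12 overlapped 132 sites (4.32%; 3.65 to 5.10%) in the sgCont list and 470 (15.4%; 14.1 to 16.7%) in the sgCbfb list, against 41.8% and 32.7% of all non-promoter LP RUNX1 sites. At shared sites the order was the reverse, with 48.8% in sgCont and 30.2% in sgCbfb. Phase 1-specific sites followed the shared ones, with 8.35% and 3.43%. Of the 436 LP-specific sites without CTCF in exactly 1 of these lists, 387 (88.8%; 85.5 to 91.4%) were in the sgCbfb list, compared with 1043 of 4896 shared sites (21.3%; odds ratio 29.2, Fisher's exact test, adjusted p = 9.83e-180; 22.6 when matched on score). Shared sites have a Phase 1 RUNX1 peak by definition and these sites have none. The contrast is thus tied to the rule and is read as a description. With overlap defined by centres at most 100 bp apart the odds ratio was 13.8, and with RUNX1 peaks kept 1 kb apart or with lists of equal length it was 51.0 and 46.3. This order did not hold at the strongest sites: of the 50 that scored 100 or more, 21 (42.0%) were in the sgCont list and 18 (36.0%) in the sgCbfb list. The lists themselves were of similar length, with 19053 and 18099 peaks, and 67.8% and 71.4% of each overlapped the other.

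The sgCbfb list was also the larger at other sites without a Phase 1 RUNX1 peak. At LP-specific sites with CTCF, 624 of 644 sites in exactly 1 list were in the sgCbfb list (96.9%). Among LP Med12 peaks that overlapped no RUNX1 or CTCF peak of either stage and no Phase 1 Med12 peak, 118 of 127 were (92.9%), in a count added after the data were seen. Among Phase 1 Med12 peaks with no RUNX1 or CTCF peak of either stage, 214 of 278 were (77.0%). Where LP Med12 was absent too, 117 of 165 were (70.9%). The order at the LP-specific sites was therefore also found at Med12 peaks of either stage that overlapped no listed RUNX1 peak. Of the 387 sites found in sgCbfb only, 336 (86.8%) had Med12 in LP, and 132 (34.1%) had it in Phase 1 cells without guides. Med12 was in the sgCbfb list at 238 of 1491 sites that had Med12 in LP only (16.0%), and in the sgCont list at 43 (2.88%). The order was the same at sites with Med12 at both stages in cells without guides. There 165 of 425 sites (38.8%) were in the sgCbfb list and 59 (13.9%) in the sgCont list. Of 385 sites in sgCbfb only with sequence, 12 (3.12%) held a RUNX string and 110 (28.6%) an E-box string, against 17.9% and 44.1% of all 3052. A PU.1 string was at 89 (23.1%) and an AP-1 string at 40 (10.4%), against 11.8% and 5.73%. These sites were picked on the Med12 lists, and their strings were not tested. Strings were not counted at sgCbfb-only sites of the other classes.

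**Figure D5:**
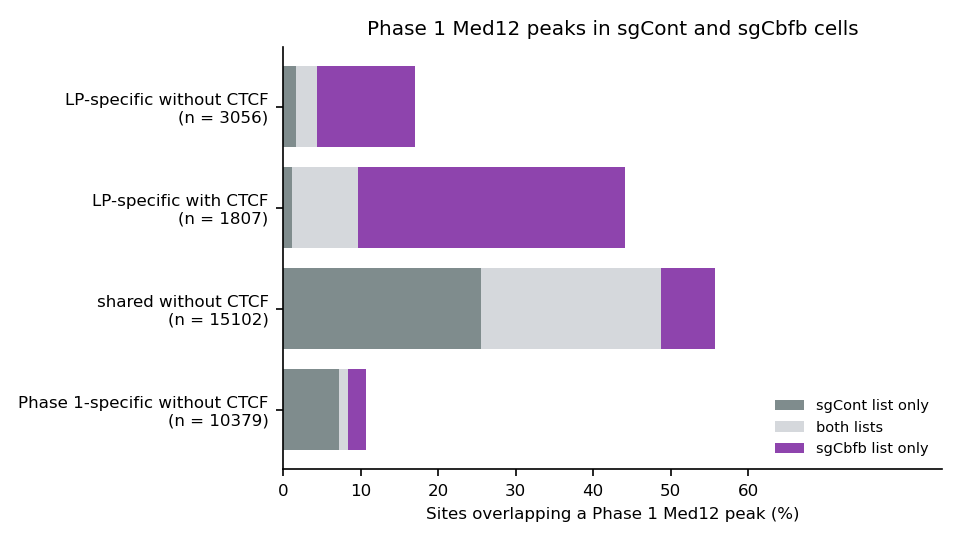
Share of sites (%, x axis) that overlap a Phase 1 Med12 peak in the sgCont list only (dark grey), in both lists (light grey) or in the sgCbfb list only (purple), for the 4 classes of RUNX1 sites. At LP-specific sites without CTCF, 1.60% were in the sgCont list only and 12.7% in the sgCbfb list only, while at shared sites 25.5% and 6.91% were.

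Notch1-IC was rarely listed at these sites. The LP Notch1-IC list of 1585 peaks overlapped 22 of them (0.720%; 0.476 to 1.09%), against 6.86% of shared sites (odds ratio 0.0985, Fisher's exact test, adjusted p = 6.61e-57; 0.441 when matched on score) and 5.71% of all non-promoter LP RUNX1 sites. The LP list came from cells grown without the DLL4 stroma and was longer than the Phase 1 list. What its peaks reflect was not tested. These 22 sites had a median score of 98.4, with a range from 15.2 to 245.9, and 4 of them scored 20.2 or less. All 22 carried p300 in LP and 18 carried Med12, 13 held an E-box string, 5 a RUNX string and none an RBPJ string. They included sites near Ppcdc (score 245.9), Zfp36l2, Il2rb, St6gal1, Sirt4 and Tcf4. The Phase 1 and Phase 2 Notch1-IC lists, with 152 and 352 peaks, overlapped 0 of the 3056 sites, which allows a share of up to 0.0982% when an upper limit of 3 peaks is set for a count of 0, or 0.126% by the Wilson interval. These short lists were rare elsewhere too, at 0.444% and 1.05% of shared sites and 0.116% and 0.578% of Phase 1-specific sites.

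RUNX1 lists from cells with guides could be compared at a few sites. Of the 3056 sites, 16 were in at least 1 of these 4 short lists. In LP cells 7 (0.229%) were in the sgCont and 5 (0.164%) in the sgCTCF list, against 1.79% and 1.94% of shared sites. In Phase 1 cells 5 (0.164%) were in the sgCont and 7 (0.229%) in the sgMed12 list, against 6.93% and 8.69% of shared sites. The 9 sites in a Phase 1 guide list thus had a RUNX1 peak in Phase 1 cells that carried guides, although the rule made them LP-specific. The site in intron 2 of Crlf2 was one of them. Crlf2 encodes the receptor chain for thymic stromal lymphopoietin. This site had the highest score of all (246.9), and it scored 36.1 in the LP sgCTCF list, 30.3 in the Phase 1 sgCont list and 31.8 in the Phase 1 sgMed12 list. The centre of a Phase 1 RUNX1 peak was 0.532 kb away, Med12 was present in LP, and p300 was listed in Phase 1 and not in LP. Sites in intron 1 of Lrch4, in intron 1 of Vav1 and near Il2rb, which encodes a chain of the IL-2 and IL-15 receptors, were also in the Phase 1 sgCont list, with scores of 23.9, 20.4 and 20.8. Vav1 encodes a guanine nucleotide exchange factor of antigen receptor signaling. Sites near Foxo3, Pck1, Bbc3, Zfp958 and Sirt4 were in LP guide lists only, and the site near Gm15706 was in the LP sgCont and the Phase 1 sgMed12 list.

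The 10 sites of the highest score ranged from 167.7 to 246.9. All 10 had a Phase 1 RUNX1 peak centred within 0.351 to 2.85 kb, 8 were in the Phase 1 Med12 sgCont list, 6 were in the sgCbfb list and 6 were in a RUNX1 guide list. Only the Il2rb site held a RUNX string, in 2 copies as shown above, and 3 sites held an E-box string. They lay near or in Crlf2, Ppcdc, Foxo3, Brd2, Zfp36l2, Pck1, Mirlet7a-1, Bbc3, Lrch4 and Il2rb. Foxo3 encodes a transcription factor of stress and survival responses, Bbc3 the apoptosis protein PUMA, and Brd2 a reader of acetylated histones. The Brd2 site lay 0.412 kb from the start, in exon 1 of a non-coding transcript of the gene, and the Foxo3 site 1.06 kb before its start, outside what the authors called promoter.

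By the authors' annotation, 1606 sites (52.6%) were in introns, 1222 (39.99%) were intergenic and 89 (2.91%) were in exons. Another 55 were at transcript ends, 45 in 3′ UTRs and 18 in 5′ UTRs. The median distance to the nearest start was 20.8 kb, against 20.8 kb at shared sites and 12.5 kb at LP-specific sites with CTCF. LTR elements, remnants of retroviruses, were named at 293 sites (9.59%), compared with 10.9% of shared sites and 3.15% of sites with CTCF. The most frequent were ORR1E (25 sites) and ORR1D2 (19 sites). At 252 of the 293 sites (86.0%), Med12 or p300 was present in LP, close to the 83.2% of all 3056.

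The nearest start, matched to a gene symbol for 3050 of the sites, belonged to 2362 genes. Of these, 1887 had 1 site, 331 had 2 and 144 had 3 or more. Akap13, which encodes a kinase anchoring protein, and Gm17746 had the most, with 7 each, followed by Cited2, Runx1, Setbp1, Sipa1l1 and Slc22a12 with 6 each. Setbp1 encodes a nuclear protein that is mutated in myeloid neoplasms, and Cited2 encodes a p300-binding protein needed in blood stem cells. At Akap13, the 7 sites were spread over 216 kb with scores from 15.4 to 44.1, and 7 had Med12 and 6 had p300 in LP, with 2 and 2 in Phase 1. At Cited2 the 6 sites lay between -305 and -53.6 kb of the start, 5 with p300 in LP and 1 in Phase 1. At Runx1 itself, 6 of 29 LP sites were of this kind, all 6 with p300 in LP, and none held a RUNX string. The strongest, at chr16:92883957-92884297, 58.1 kb before the start, scored 74.0, carried Med12 and p300 at both stages and was in the Med12 sgCbfb list.

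Gene lists gave shares around the 13.4% of all non-promoter LP RUNX1 sites, and no list was tested. Among the sites near 15 genes of RUNX and E protein function, 18 of 102 were LP-specific without CTCF (17.6%; 11.5 to 26.2%). They included 2 near Id3, which encodes an inhibitor of E proteins, 1 in Tcf4, which encodes an E protein, 2 near Runx3, 3 near the corepressor gene Tle4, 6 near Runx1 and 1 each near Runx2, Cbfa2t2, Tle3 and Tcf12. The stronger Id3 site lay 31.3 kb before the start and scored 53.9, with Med12 and p300 in LP, neither in Phase 1, and Med12 in the sgCbfb list. Of these 18 sites, 17 had p300 in LP and 4 in Phase 1.

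Among cytokine receptor and signaling genes 17 of 125 sites were of this kind (13.6%; 8.67 to 20.7%), near 12 genes, with a median score of 45.5. Besides Crlf2 and Il2rb these were Socs2 (score 119.5), Ccr9 (105.2), Socs1 (88.6 for the stronger of 2), Tgfbr2 (87.6 for the strongest of 3), Socs3 (59.5), Tgfbr1, Jak1, Ifngr1, Cxcr4 and Il6ra. The Socs genes encode feedback inhibitors of JAK and STAT signaling, and Ccr9 the receptor for the thymic chemokine CCL25. Both the Socs2 and the Ccr9 site had Med12 and p300 in LP, with Phase 1 p300 at Socs2 alone.

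Among T-lineage genes 9 of 97 sites were of this kind (9.28%; 4.96 to 16.7%), near 7 of the 21 genes with an LP RUNX1 site outside promoters. They were near or in Zfpm1, a GATA cofactor gene (score 91.3), Cd2 (46.0 for the stronger of 2), Lef1 (38.4), Ets1 (22.5), Tox, Satb1 and Cd28. Med12 and p300 were at the Zfpm1, Cd2, Lef1 and Ets1 sites in LP and at none of these in Phase 1. The Lef1 site, 96.1 kb before the start, was near the edge of the overlap rule, with a Phase 1 RUNX1 peak centred 0.347 kb away. Over the list, 7 of the 9 sites had p300 in LP and 1 in Phase 1.

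Among Notch pathway genes 8 of 45 sites were of this kind (17.8%; 9.29 to 31.3%), 4 in Maml3 or near it, 2 at Notch2, 1 near Maml2 and 1 near Numb. Maml2 and Maml3 encode coactivators that bind Notch1-IC, and Numb an inhibitor of Notch signaling. The site in intron 1 of Notch2 scored 37.8, held the RUNX string shown above and kept p300 in Phase 1. None of these 8 sites had a Notch1-IC peak in Phase 1 or Phase 2, as stated for all 3056.

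For B-lineage genes the count was 8 of 74 (10.8%; 5.58 to 19.9%), 5 of them at Irf8, 2 near Irf4 and 1 near Bach2. All 8 had p300 in LP and 4 kept it in Phase 1. For stem and progenitor genes it was 7 of 89 (7.87%; 3.86 to 15.4%), 3 at Fli1 and 1 each at Myb, Etv6, Cd34 and Bcl11a. The Myb site, in intron 5, scored 28.9, held the PU.1 string shown above, had Med12 and p300 in LP and p300 in Phase 1, and was in the Med12 sgCbfb list. For myeloid genes it was 2 of 32 (6.25%, 1.73 to 20.1%), near Id2 and Fcgr3. Id2 was counted in this list and not with Id3 among the RUNX and E protein genes.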

How the data were processed

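The authors aligned ChIP-seq reads to mm10 with Bowtie 1.1.1, called peaks with HOMER against a control and kept peaks reproducible between 2 replicates. The deposited value is HOMER's normalized peak score, kept by the authors at 15 or more. Base calls came from bcl2fastq, version 1.8.4 in the submitters' processing notes. The 38 samples formed 19 groups of 2 replicates. The 17 ChIP groups had 1 list each, the 2 input groups had none, and replicates could not be separated.

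Peaks sharing at least 1 bp overlapped. Shares have 95% Wilson intervals. Classes of sites were set against each other by Fisher's exact test, two-sided (scipy 1.17.1), Benjamini-Hochberg adjusted over 16 tests at 0.05, and Mantel-Haenszel odds ratios over 5 score classes (statsmodels 0.14.6). The score classes were ranked within each RUNX1 list. Scripts (Python 3.11.15, numpy 2.4.6, pandas 2.3.3) were tested on simulated data. Exact strings were searched on both strands of GRCm38.p6 (pysam 0.24.0), whose chromosome lengths contain every peak on a named chromosome. 4 sites lay elsewhere and have no sequence. The 16 strings, and the CTCF string by name, can overlap each other. Accessions were matched to RefSeq symbols of GRCm38.p6.

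The sites, 7 gene lists (145 genes), strings and tests were chosen with earlier results of these data known. Named were the 10 highest-scored sites, up to 4 genes per list, the 6 genes with most sites, up to 10 sites in a RUNX1 guide list, and the 3 highest-scored sites with a RUNX string; other members of the lists are named for completeness. Alternatives are given below.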

Additional observations from a re-analysis of the deposited data

Results flagged for a closer look

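Effects of a change of stage or guide that differed between LP-specific sites without CTCF and shared sites, each by a test of the difference, were flagged. The odds ratio of keeping Med12 in Phase 1 was 0.0210 and that of keeping p300 was 0.0319. The odds ratio of being in the Med12 sgCbfb list only, rather than in the sgCont list only, was 29.2. All of these contrasts set sites without a Phase 1 RUNX1 peak against sites that have one by definition. They are therefore tied to the rule that chose the sites. Sites were the units of these tests, and both guide lists came from 2 replicates that were combined.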

How the results depend on the processing

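Over 144 recomputed odds ratios, 135 kept their direction and their side of the threshold. The number of sites fell from 3056 to 1863 with a score of at least 20 and to 882 with at least 30. It was 2755 with RUNX1 peaks kept 1 kb apart and 2856 with CTCF peaks of either stage kept 1 kb away. The number rose to 3405 with promoters kept and to 3732 with centres at most 100 bp apart. With RUNX1 lists of equal length, where the longer Phase 1 list was cut to the LP length, it was 4418. With a score of at least 30, LP Med12 and LP p300 against LP-specific sites with CTCF were no longer called (odds ratios 1.01 and 1.13). The PU.1 string against shared sites (odds ratio 0.911) was called as less frequent when matched on score (0.868), with centres at most 100 bp apart (0.859), with a score of at least 20 (0.828) or 30 (0.684) and in 400-bp windows (0.872), and turned with promoters kept (1.11) and with RUNX1 lists of equal length (1.01). The cause was not tested. Over these alternatives the odds ratio for Med12 in the sgCbfb list only ranged from 13.8 to 51.0, and those against shared sites from 0.195 to 0.669 for LP Med12, from 0.162 to 0.664 for LP p300 and from 0.0702 to 0.441 for LP Notch1-IC. No paired analysis was possible because each list combined its replicates, and for the same reason no replicate could be left out. Reads per library were not used, so depth limits what the absence of a peak shows.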
